A study of Mus musculus with 514 samples.

Results

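Crxos, Cphx1, Duxbl1, Sebox and Nobox are 5 homeobox genes of the mouse egg and cleavage embryo, and they were followed in single oocytes and embryos that lacked the nuclear receptors Nr5a2 and Esrrb. They were chosen by gene name, and all 5 were present among the 55168 named genes of the table made from full-length reads. The study measured poly(A) RNA in 1 library per oocyte or embryo, and the reads were split into those that cover whole transcripts (263 libraries) and those that carry a unique molecular identifier (UMI) and begin at 5′ ends (a table of 110 libraries from L2C to 8C; UMI reads of oocytes and E2C embryos were not analysed here). Both tables come from the same sequencing, so the UMI values are a second readout and not further replicates. Both tables give TPM (transcripts per 1000000), a share of the sequenced RNA corrected for gene length in the full-length table.

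Stages are named as in the labels: OoMII (MII oocytes), E2C and L2C (early and late 2-cell embryos), 4C and 8C. The prefix mz_ marks loss in mother and embryo, and z_ marks loss in the embryo alone, per the series description; m_ is read in the same scheme as loss in the mother alone. Nr5a2 is knocked out in NrKO, Esrrb in EKO and both genes in DKO, while NrHet and DHet are the heterozygous controls for Nr5a2 and for both, and Nrpp is a further control whose abbreviation the labels do not spell out. Oocytes comprised 12 NrKO, 18 NrHet and 9 Nrpp libraries. E2C embryos comprised 22 mz_NrKO, 18 m_NrKO, 12 z_NrKO, 29 mz_NrHet and 21 mz_Nrpp libraries. L2C embryos comprised 6 mz_DKO, 10 mz_NrKO, 10 mz_EKO, 7 mz_DHet, 6 z_NrKO and 7 z_NrHet libraries. At 4C there were 10 mz_DKO, 5 mz_NrKO, 4 mz_EKO and 6 mz_DHet libraries, and at 8C 10 mz_DKO, 10 mz_NrKO, 10 mz_EKO and 21 mz_DHet libraries. In the UMI table the 8C groups were smaller, with 9 mz_DKO, 5 mz_NrKO, 9 mz_EKO and 16 mz_DHet libraries. The Cre driver, the strain, the age of the mothers and which embryos share a mother are not given in the sources used here, so p-values measure the spread between these single embryos.

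Homeobox genes encode transcription factors whose homeodomain folds into 3 helices, of which the last lies in the major groove of DNA. The paired-type family to which these genes are close has expanded and diverged in mammals, and several of its members are used only in the egg and the first cell divisions. Nobox acts in growing mouse oocytes and is needed for the follicle pool, and Sebox is a maternal factor of the mouse 2-cell embryo. Cphx1 is an oocyte and early embryo homeobox gene in a tandem array, Duxbl1 has a double homeobox and belongs to the family of Dux, an activator of 2-cell genes, and Crxos is a 2-homeobox gene beside Crx that is active in the preimplantation embryo. Nr5a2 and Esrrb are orphan nuclear receptors that bind related DNA elements in early embryos.

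Part of the helix that lies in the DNA groove is shown, because its residues differ between some of these homeoboxes. Each line gives 60 coding bases, 5′ to 3′, from GENCODE vM21 transcripts (mm10), and capitals mark the 6 codons that start at the tryptophan codon of the last helix.
Crxos first homeobox: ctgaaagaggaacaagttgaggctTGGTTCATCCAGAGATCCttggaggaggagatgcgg
Crxos second homeobox: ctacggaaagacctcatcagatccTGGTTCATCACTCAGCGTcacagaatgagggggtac
Cphx1: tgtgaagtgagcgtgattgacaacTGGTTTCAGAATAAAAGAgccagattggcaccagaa
Duxbl1 first homeobox: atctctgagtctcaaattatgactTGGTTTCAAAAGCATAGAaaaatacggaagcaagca
Duxbl1 second homeobox: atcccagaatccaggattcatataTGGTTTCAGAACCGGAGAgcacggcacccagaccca
Sebox: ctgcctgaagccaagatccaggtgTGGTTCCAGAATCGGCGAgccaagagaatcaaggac
Nobox: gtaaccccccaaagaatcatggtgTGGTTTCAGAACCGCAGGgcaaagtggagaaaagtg
The fourth codon in capitals encodes asparagine, the residue most homeodomains carry there, in Cphx1, Sebox, Nobox and the second homeobox of Duxbl1. It encodes lysine in the first homeobox of Duxbl1, and glutamine and threonine in the first and second homeobox of Crxos. All 6 codons in capitals encode the same residues in Sebox, Nobox and the second homeobox of Duxbl1. In mm10 coordinates, Nobox (ENSMUSG00000029736.15) lies on chromosome 6 from 43303674 to 43309554 on the minus strand. The other members lie on plus strands, with Crxos (ENSMUSG00000074365.13) on chromosome 7 from 15882617 to 15904020 and Sebox (ENSMUSG00000001103.7) on chromosome 11 from 78503447 to 78505081. Cphx1 (ENSMUSG00000095975.3) and Duxbl1 (ENSMUSG00000048502.14) are neighbours on chromosome 14, from 25938304 to 25956356 and from 25978577 to 25990088.

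Cphx1 and Duxbl1 each have a pair of near copies on chromosome 14, and this limits what their own values can show. The 1649 bases of Cphx1-204 are contained whole in transcripts of Cphx2 and Cphx3, so that 100.0% of its 75-base windows also occur there. For Duxbl1 this holds for 89.6% of windows, and for Duxbl2 for 100.0%. The copies extend to the start of transcription, where the UMI reads begin. The RefSeq promoter entry of Cphx1 (GRCm38.p6, chr14:25942294-25942593, plus strand, 250 bases before to 50 after the start) is shown because 296 of its 300 bases, in capitals, form 1 run that is identical in the entries of Cphx2 and Cphx3, and those 2 entries are the same sequence throughout.
Cphx1 promoter: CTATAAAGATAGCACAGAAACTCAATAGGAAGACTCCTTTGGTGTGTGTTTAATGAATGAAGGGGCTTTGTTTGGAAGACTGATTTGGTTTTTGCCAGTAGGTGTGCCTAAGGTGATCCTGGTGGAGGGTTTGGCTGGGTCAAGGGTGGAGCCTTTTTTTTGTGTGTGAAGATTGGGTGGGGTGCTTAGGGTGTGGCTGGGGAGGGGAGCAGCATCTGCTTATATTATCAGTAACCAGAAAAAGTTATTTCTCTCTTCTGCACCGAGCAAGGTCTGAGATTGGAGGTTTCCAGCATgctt
Short motifs were searched on both strands of the 8 RefSeq promoter entries that match the members or the Cphx copies (1 each for Nobox, Sebox, Cphx1, Cphx2 and Cphx3, and 3 for Crxos; Duxbl1 had none). AAGGTCA, a core element of receptors of the Esrrb and Nr5a2 type, was not found in these windows, while 4.72% of all 32851 promoter entries hold it. The variant AAGGCCA was not found either, against 6.20% of all entries. Of homeodomain motifs, TAATCC, a paired-type element, was absent from the windows and present in 7.06% of all entries. TAATTG, held by 8.0% of all entries, was not found. The last motif searched shares all but its final letter with it, reads TAATTA on either strand, and was likewise not found, against 5.29% of all entries.

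Before the results, 2 properties of the libraries bear on them. The gene total of Nr5a2 was not lower in its knockouts, with 778 ± 174 TPM in 8C mz_DKO embryos (SD, n = 10) and 597 ± 241 TPM in mz_NrKO embryos (SD, n = 10), against 472 ± 144 TPM in mz_DHet embryos (SD, n = 21), so that a total over the whole gene does not check the deletion. Esrrb UMI values follow the labels at 8C, at 3.3 ± 1.15 TPM in 8C mz_DKO embryos (SD, n = 9) and 1.72 ± 0.618 TPM in mz_EKO embryos (SD, n = 9), against 41.4 ± 14.1 TPM in mz_DHet embryos (SD, n = 16). Earlier they overlap and do not check the labels, with 2.09 to 12.4 TPM in L2C mz_DKO and 0 to 16.7 TPM in mz_EKO embryos, against 1.04 to 37.0 TPM in mz_DHet embryos, and with 0.335 to 4.88 TPM in 4C mz_DKO and 0 to 4.29 TPM in mz_EKO embryos, against 0.751 to 25.5 TPM in mz_DHet embryos. Per-library TPM sums over named genes of the full-length table ran from 814735 to 995883, with 10655 to 15971 genes above 1 TPM, and read depth is unknown because TPM does not keep it. The library of E2C mz_NrKO replicate 1 stands apart, with the lowest sum and 1253 TPM of Esrrb; the members' E2C values for mz_NrKO minus mz_NrHet are also given without it. No 2 libraries held identical values.

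Over development the 5 genes fell into 3 patterns, described here over all libraries of a stage whatever the genotype. Nobox and Sebox were present in oocytes, at a median of 86.5 TPM (33.9 to 147, n = 39) and 135 TPM (64.1 to 193, n = 39), were highest at E2C, at a median of 472 TPM (94.2 to 703, n = 102) and 538 TPM (104 to 872, n = 102), and were low by 8C, where Nobox was listed at 0 in 47 of 51 libraries and Sebox did not pass 11.8 TPM. Crxos was the reverse. It was listed at 0 in all 39 oocytes, reached at most 38.3 TPM in 102 E2C libraries, and then ran at a median of 452 TPM at L2C (192 to 1504, n = 46), 579 TPM at 4C (268 to 1304, n = 25) and 1306 TPM at 8C (189.9 to 5254, n = 51). The copies of Cphx, summed, were already at a median of 145 TPM in oocytes (74.3 to 222, n = 39) and were at their highest in the cleaving embryo, with medians of 406 TPM at E2C, 762 TPM at L2C and 817 TPM at 4C before 178 TPM at 8C. Summed Duxbl copies were near the floor in oocytes, at a median of 4.08 TPM, and then nearly level from E2C to 4C at medians of 184, 186 and 189.7 TPM (lowest 72.9, highest 309), with 27.0 TPM at 8C. In E2C embryos Sebox and Nobox, with medians of 538 and 472 TPM, had overlapping ranges, and at 8C the range of Crxos lay wholly above those of Duxbl, Sebox and Nobox but overlapped that of summed Cphx.

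**Figure D1:**
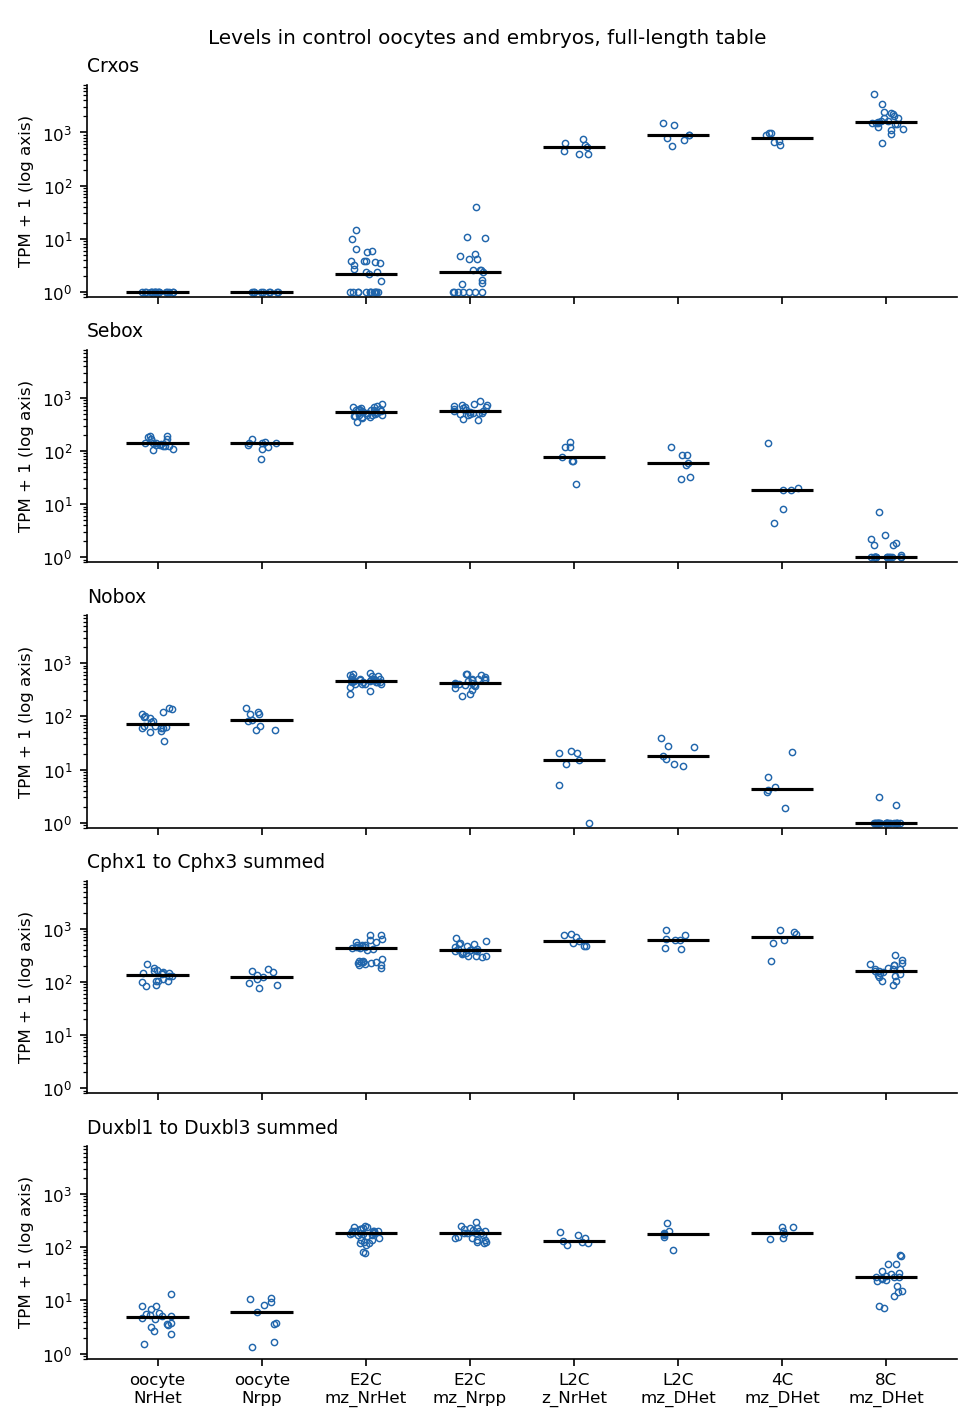
Levels of Crxos, Sebox, Nobox, summed Cphx1 to Cphx3 and summed Duxbl1 to Duxbl3 in the control groups of the full-length table, as TPM + 1 on a log axis. Each point is 1 library, the bars are group medians and stages run from oocyte to 8C. Crxos starts at 0 TPM in every oocyte, while Nobox and Sebox peak at E2C.

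The steps between stages were tested in control groups with limma, an empirical Bayes linear model, on log2(TPM + 1), where fold changes of low genes are understated. Changes are given as estimated, and after them relative to the median of all genes tested, which shifted by 0.43 (log2) from Nrpp oocytes to E2C mz_Nrpp embryos, by -0.10 from E2C mz_Nrpp to L2C z_NrHet, by -0.50 from 4C to 8C mz_DHet and by -0.53 from L2C to 8C mz_DHet. In E2C mz_Nrpp embryos over Nrpp oocytes, Nobox rose by 2.31 ± 0.24 (log2, SE), or 1.88 relative to the median, with an adjusted p of 2.36e-15 from limma, and Sebox by 2.21 ± 0.23, or 1.78, with an adjusted p of 3.51e-15. Duxbl1 rose by 3.74 ± 0.48 and its summed copies by 5.19 ± 0.25, or 4.76 relative to the median (limma, adjusted p = 1.74e-38). Summed Cphx rose by 1.76 ± 0.19, or 1.33 relative to the median (limma, adjusted p = 1.31e-14), and Crxos also passed the threshold (limma, adjusted p = 0.000811), with no fold given since every oocyte was listed at 0. All 5 members were thus called at this step, at which 52.2% of all genes tested were called. The same step in NrHet controls, at which 61.5% of genes were called, gave 2.59 for Nobox, 1.90 for Sebox, 1.51 for summed Cphx and 5.21 for summed Duxbl.

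Between E2C and L2C the members parted. In L2C z_NrHet over E2C mz_Nrpp embryos Crxos rose by 7.69 ± 0.39 (log2, SE; limma, adjusted p = 1.84e-37), with 531 TPM (389.7 to 739.8) at L2C and 1.38 TPM (0 to 38.3) at E2C as medians, and the groups did not overlap. Nobox fell by 5.46 ± 0.26 on the log2 scale (limma, adjusted p = 2.73e-39), with a median of 14.1 TPM (0 to 21.0) in L2C z_NrHet and 429 TPM (244 to 616) in E2C mz_Nrpp embryos. Sebox fell by 2.91 ± 0.25 (limma, adjusted p = 4.87e-20), with 75.1 TPM (23.5 to 146) and 559.7 TPM (384 to 872) in the same groups. The difference between the falls of Nobox and Sebox was not tested. Summed Cphx rose by 0.57 ± 0.21 (limma, adjusted p = 0.0109), whereas the single Cphx1 entry fell by 2.76 ± 1.04 (limma, adjusted p = 0.0132) as the Cphx3 entry rose by 3.21 ± 1.05 (limma, adjusted p = 0.00409). Summed Duxbl changed by -0.34 ± 0.28 and was not called (limma, adjusted p = 0.259). At this step 75.7% of genes were called, and stage and labelled date cannot be told apart from oocyte to L2C because no date is shared.

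Among mz_DHet embryos none of the 5 members was called from L2C to 4C, at which 1.04% of genes were called, and only 1 4C control library shares a date with L2C. The 4C and 8C controls share no date, so their date-adjusted step is linked through that 1 library alone. From 4C to 8C, at which 25.3% were called, Sebox fell by 4.97 ± 1.25 (log2, SE; limma, adjusted p = 0.00296) and Nobox fell by 3.69 ± 1.13 (limma, adjusted p = 0.0137); relative to the median of all genes these are -4.47 and -3.19. Summed Duxbl fell by 2.88 ± 0.79, or -2.38 relative to the median (limma, adjusted p = 0.0066), while Crxos gave 1.31 ± 0.53 (limma, adjusted p = 0.0642) and summed Cphx -1.32 (limma, adjusted p = 0.0624). Without the date term both were called, Crxos at 1.10 (limma, adjusted p = 0.000142) and summed Cphx at -1.91 (limma, adjusted p = 5.12e-10), and Crxos was also called with median-of-ratios scaling, at 1.78. Over the longer interval from L2C to 8C, with shared dates and 53.8% of genes called, Crxos rose by 1.22 ± 0.30, or 1.75 relative to the median (limma, adjusted p = 0.000806). Over that interval the changes were -6.37 ± 0.71 for Sebox (limma, adjusted p = 1.04e-09), -3.79 ± 0.64 for Nobox (limma, adjusted p = 4.61e-06), -2.39 ± 0.30 for summed Cphx (limma, adjusted p = 1.6e-08) and -2.42 ± 0.45 for summed Duxbl (limma, adjusted p = 2.21e-05). A TPM is a share, and fewer cells and less RNA per cell cannot be told apart in a whole embryo.

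Which near copy received the reads differed between libraries far more than the copies' sum did. In oocytes 15 of 39 libraries had over 90% of summed Cphx TPM in the Cphx1 entry and another 15 had over 90% in the Cphx3 entry, with 48.7% and 48.6% of the summed TPM in all. The libraries over 90% in Cphx1 were 0 of 9 Nrpp, 11 of 18 NrHet and 4 of 12 NrKO oocytes. At E2C the shares were 57.8% for Cphx1 and 35.1% for Cphx3, with 24 and 9 of 102 libraries over 90%. For Cphx1 these were 1 of 21 mz_Nrpp, 12 of 29 mz_NrHet, 5 of 22 mz_NrKO, 3 of 18 m_NrKO and 3 of 12 z_NrKO embryos. The part of genotype or date in these shares was not tested. From L2C onward nearly everything lay in Cphx3, at 95.7%, 97.5% and 91.2% of summed TPM at L2C, 4C and 8C. In the UMI table the same embryos' RNA was given mostly to Cphx2, at 78.3%, 92.4% and 93.0% of summed TPM. Summed Duxbl showed the same disagreement, with 79.2% in Duxbl3 at L2C in the full-length table, against 51.8% in Duxbl2 and 35.2% in Duxbl1 in the UMI table. Values of the single Cphx1 and Duxbl1 entries are therefore uncertain, and the sums, added after the values were seen, are given beside them.

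**Figure D2:**
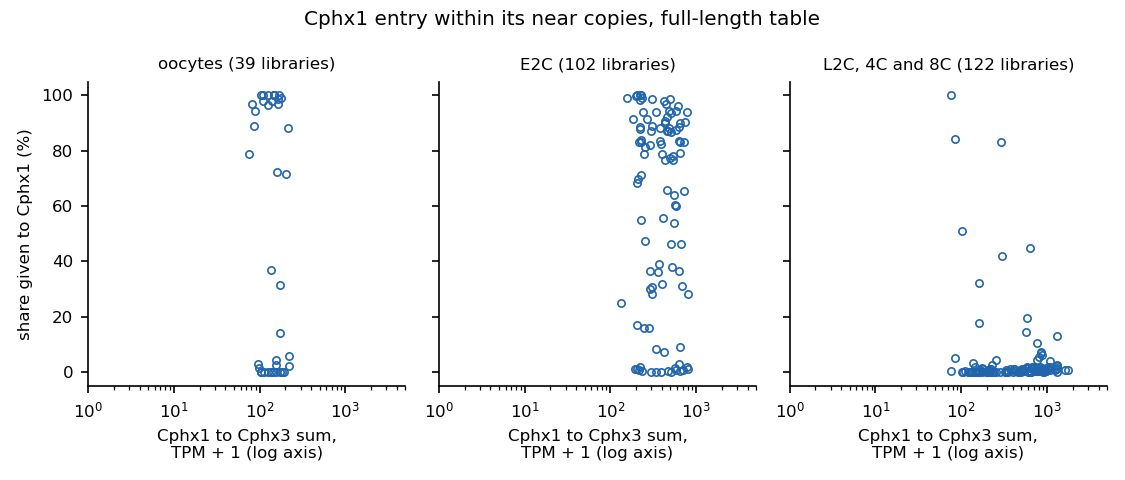
Share of summed Cphx1 to Cphx3 TPM given to the Cphx1 entry (vertical axis, percent) against the sum (horizontal axis, TPM) for each full-length library, with 39 oocytes, 102 E2C embryos and 122 later embryos. Oocyte and E2C libraries spread over the whole range of shares at like sums, while most later libraries lie near 0.

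In oocytes the question was whether these transcripts differ in eggs labelled as lacking Nr5a2. Nobox had a median of 106 TPM (61.6 to 147) in NrKO oocytes, 72.4 TPM (33.9 to 141) in NrHet and 86.5 TPM (53.4 to 142) in Nrpp oocytes, and the groups overlapped almost wholly. The difference was 0.26 ± 0.11 (log2, SE) for NrKO minus NrHet (limma, adjusted p = 0.318) and 0.36 ± 0.13 for NrKO minus Nrpp (limma, adjusted p = 0.159). The authors' deposited table lists the second comparison at 0.34 with a false discovery rate of 0.0363. That size is below the fold change of 1.5 in the authors' own rule. Nobox also moved with the labelled date (day/month), at a median of 119 TPM (79.4 to 147, n = 18) on 20/6 and 65.4 TPM (33.9 to 98.6, n = 21) on 5/6, and the part of date in this level was not tested beyond its term in the fit. Summed Cphx had a median of 172 TPM (109 to 222) in NrKO oocytes, 131 TPM (81.1 to 216) in NrHet and 124 TPM (74.3 to 173) in Nrpp oocytes, with 11 of 12 NrKO oocytes above the mean of either control. Its difference was 0.42 ± 0.13 against NrHet (limma, adjusted p = 0.16) and 0.51 ± 0.16 against Nrpp (limma, adjusted p = 0.0886). Sebox gave -0.17 ± 0.10 against NrHet (limma, adjusted p = 0.537), with medians of 127 TPM in NrKO and 138 TPM in NrHet oocytes. None of the 3 members that passed the filter on low values (Cphx1, Sebox and Nobox) was called in any oocyte comparison, where 0.212% of genes were called for NrKO minus NrHet, 1.2% for NrKO minus Nrpp and 0.0335% for NrHet minus Nrpp. At an unadjusted p under 0.05, limma gave 1 member in each, Nobox against either control and Cphx1 between the controls. Of all 8952 genes tested, that cutoff gave 1062 for NrKO minus NrHet, 1405 for NrKO minus Nrpp and 662 for NrHet minus Nrpp.

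At E2C all 5 members passed the filter. In 6 comparisons among the maternal, zygotic and combined Nr5a2 knockouts and the controls, limma called none of the members. It gave none an unadjusted p under 0.05 either. Of all 13040 genes tested, that cutoff gave from 701 (z_NrKO minus mz_NrHet) to 2554 (mz_NrKO minus mz_NrHet). Sebox had medians of 535 TPM (104 to 675) in mz_NrKO, 529 TPM (342 to 641) in m_NrKO, 545 TPM (448 to 671) in z_NrKO, 539 TPM (357 to 765) in mz_NrHet and 559.7 TPM (384 to 872) in mz_Nrpp embryos. Nobox was as even, with medians between 425 and 521 TPM, and for both genes the lowest mz_NrKO value belongs to replicate 1. For mz_NrKO minus mz_NrHet, at which 5.17% of all genes were called, the log2 differences were -0.05 ± 0.09 for Sebox (limma, adjusted p = 0.846) and -0.04 ± 0.10 for Nobox (limma, adjusted p = 0.887). With near copies summed, where 5.16% were called, they were 0.05 ± 0.10 for summed Cphx (limma, adjusted p = 0.841), 0.05 ± 0.10 for summed Duxbl (limma, adjusted p = 0.849). For Crxos the difference was -0.20 ± 0.34 (limma, adjusted p = 0.805). Without replicate 1 the values were 0.07 for Sebox, 0.08 for Nobox, 0.16 for summed Cphx, 0.11 for summed Duxbl and -0.18 for Crxos, and none was called. Among the other comparisons, 0.245% of genes were called for m_NrKO, 0.0% for z_NrKO, 1.79% for mz_NrKO minus mz_Nrpp, 0.0% for mz_NrKO minus m_NrKO and 0.268% for mz_NrHet minus mz_Nrpp. For Duxbl1 the authors' deposited table gives 1.55 (log2) with a false discovery rate of 0.013 for mz_NrKO against mz_Nrpp, whereas the fit here gave 0.79 ± 0.41 for the single entry (limma, adjusted p = 0.34) and -0.13 ± 0.12 for the summed copies (limma, adjusted p = 0.663).

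The summed Cphx level at E2C differed between labelled dates. Its median was 586 TPM (132 to 796, n = 42) on 1/8, 401 TPM (225 to 552, n = 21) on 11/1, 291 TPM (157 to 387, n = 19) on 14/11 and 222 TPM (198 to 288, n = 20) on 7/11. Summed Duxbl in the same embryos had medians of 169 to 195 TPM on the 4 dates. These medians pool all genotypes, which were unevenly spread over the dates. The part of date was not tested beyond its term in the fit. What the date stands for is not given in the sources used here.

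Crxos was called lower in mz_DKO embryos at 4C and in mz_DKO and mz_NrKO embryos at 8C, and its values at L2C, the first stage of strong expression, pointed the same way without a call. At L2C the levels were a median of 434 TPM (212 to 898, n = 6) in mz_DKO, 329 TPM (192 to 473, n = 10) in mz_NrKO and 540.4 TPM (249 to 751, n = 10) in mz_EKO embryos, against 899.8 TPM (564 to 1504, n = 7) in mz_DHet embryos. All 10 mz_NrKO embryos lay below the lowest mz_DHet embryo. In z_NrKO embryos the median was 380.4 TPM (251 to 467, n = 6), against 531 TPM (389.7 to 739.8, n = 7) in z_NrHet embryos, and all 6 lay below the z_NrHet mean. The 5 mz_DHet embryos dated 22/5 held 801 to 1504 TPM and those dated 8/3 held 564 and 713 TPM, while all 10 mz_NrKO embryos were dated 8/3. With date in the fit, the log2 differences were -0.73 ± 0.25 for mz_DKO (limma, adjusted p = 0.335), -0.76 ± 0.28 for mz_NrKO (limma, adjusted p = 0.408), -0.39 ± 0.28 for mz_EKO (limma, adjusted p = 0.795) and -0.56 ± 0.24 for z_NrKO (limma, adjusted p = 0.473). None of the 5 members was called at L2C, where 0.141%, 0.127%, 0.0% and 0.099% of genes were called in these comparisons. At an unadjusted p under 0.05 limma gave Crxos for mz_DKO, mz_NrKO and z_NrKO and no member for mz_EKO. Of all 14147 genes tested, that cutoff gave 1181 for mz_DKO, 1143 for mz_NrKO, 947 for mz_EKO and 1207 for z_NrKO. Without the date term the values were -1.11 for mz_DKO (limma, adjusted p = 0.0432), -1.48 for mz_NrKO (limma, adjusted p = 0.000124) and -0.96 for mz_EKO (limma, adjusted p = 0.0272). In the UMI table, where 0.017% of genes were called for mz_DKO and for z_NrKO and 0.0% for mz_NrKO and mz_EKO, no member was called either, and the Crxos differences were -0.98 ± 0.28 for mz_DKO, -0.85 ± 0.31 for mz_NrKO, -0.32 ± 0.32 for mz_EKO and -0.57 ± 0.26 for z_NrKO. Within 8/3 alone, mz_NrKO gave -0.95 ± 0.32 (10 against 2 embryos; limma, adjusted p = 0.925), and z_NrKO, where all embryos share that date, gave -0.56 ± 0.19 (limma, adjusted p = 0.397).

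**Figure D3:**
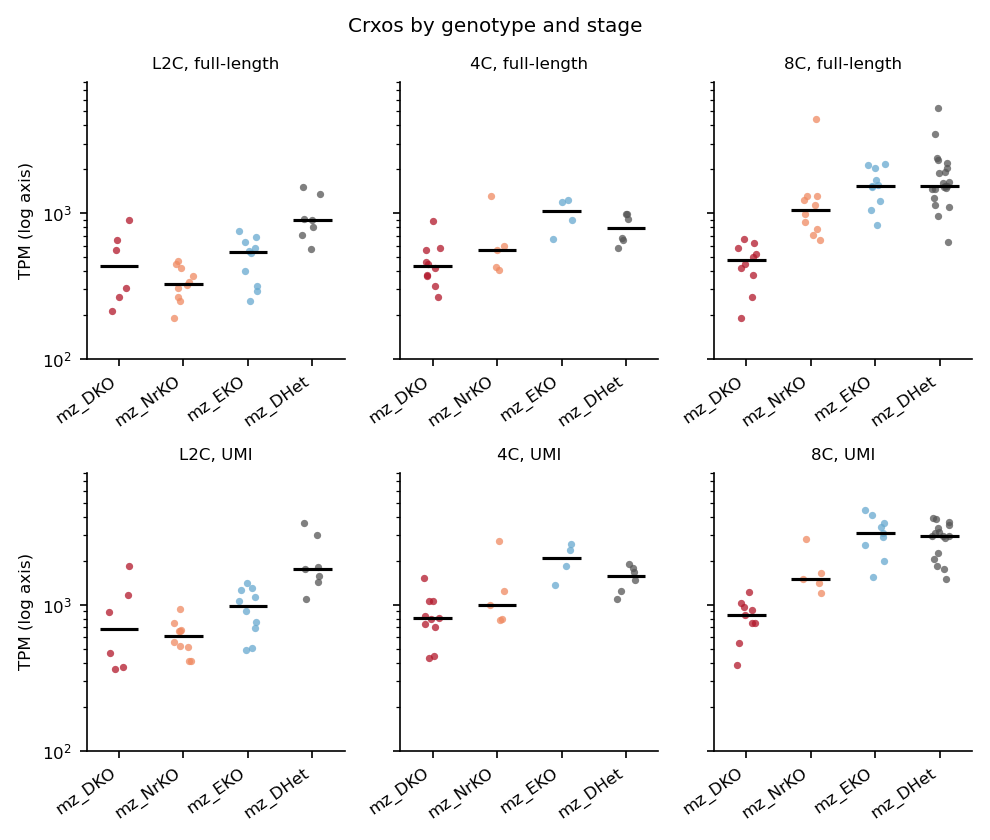
Crxos level in TPM (log axis) by genotype and stage, L2C to 8C, in the full-length and the UMI table, with 1 point per library and bars at group medians. The mz_DKO embryos lie lowest at 8C, at 189.9 to 660.4 TPM in the full-length table, and mz_EKO embryos, at 835 to 2170.5 TPM, lie within the mz_DHet range there.

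At 4C, Crxos had a median of 436 TPM (268 to 883, n = 10) in mz_DKO embryos, against 792 TPM (574 to 993, n = 6) in mz_DHet embryos. Of the 10 mz_DKO embryos, 9 were below the mz_DHet mean, and the exception, 883 TPM, was the only mz_DKO embryo dated 22/5. The difference was -0.76 ± 0.18 (log2, SE; limma, adjusted p = 0.021), and -0.88 in the UMI table (limma, adjusted p = 0.0376), where all 10 lay below the mz_DHet mean. Within 17/6 it was -0.85 ± 0.18 (9 against 5 embryos; limma, adjusted p = 0.0161). The call was lost with no filter (-0.76; limma, adjusted p = 0.0649), without the date term (-0.81; limma, adjusted p = 0.0748) and with the replicate block (-0.81; limma, adjusted p = 0.0885). This was 1 of 5 members called for mz_DKO at 4C, where 2.58% of genes were called in the full-length and 1.17% in the UMI table. The 5 mz_NrKO embryos held 405, 427, 561, 595 and 1304 TPM, of which 3 lay below all 6 mz_DHet embryos and 1, at 595 TPM, below all but 1. Their difference was -0.73 ± 0.23 (limma, adjusted p = 0.147), but -0.89 without the embryo at 1304 TPM (limma, adjusted p = 0.0392), so that 1 embryo decides this call. The 4 mz_EKO embryos held 664, 895, 1189 and 1234 TPM and did not stand apart from mz_DHet embryos, at -0.15 ± 0.25 (limma, adjusted p = 0.959).

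At 8C, Crxos was lower in mz_DKO and in mz_NrKO embryos and near its control level in mz_EKO embryos. It had a median of 475 TPM (189.9 to 660.4, n = 10) in mz_DKO, 1057 TPM (652 to 4399.7, n = 10) in mz_NrKO and 1540 TPM (835 to 2170.5, n = 10) in mz_EKO embryos, against 1545 TPM (631 to 5254, n = 21) in mz_DHet embryos. All 10 mz_DKO embryos were below the mz_DHet mean, and the 2 groups overlapped only between 631 and 660.4 TPM. The difference for mz_DKO was -1.75 ± 0.20 (log2, SE), a 3.36-fold lower level (limma, adjusted p = 1.12e-09). The mz_NrKO difference was -0.68 ± 0.20 (limma, adjusted p = 0.00656), with 9 of 10 embryos below the mz_DHet mean, and it missed the threshold without the date term, at -0.57 (limma, adjusted p = 0.0752). The mz_EKO difference was 0.05 ± 0.20 (limma, adjusted p = 1.0), and this does not show equal levels. Crxos was the 1 member called of the 2 that passed the filter at 8C (Crxos and Cphx1), for mz_DKO and for mz_NrKO, where 33.7% and 28.3% of all genes were called, so that a call there is common among genes. For mz_EKO none was called, beside 0.00919% of all genes.

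The UMI table gave the same picture of Crxos at 8C. The level there was a median of 849 TPM (389 to 1225, n = 9) in mz_DKO and 3099 TPM (1537 to 4442, n = 9) in mz_EKO embryos, against 2960.5 TPM (1494 to 3938, n = 16) in mz_DHet embryos. The 5 mz_NrKO embryos held 1196, 1415, 1507, 1641 and 2826 TPM. The mz_DKO group did not overlap the mz_DHet or the mz_EKO group. The differences from mz_DHet were -1.81 ± 0.19 for mz_DKO (limma, adjusted p = 1.37e-09), -0.75 ± 0.23 for mz_NrKO (limma, adjusted p = 0.0141) and 0.09 ± 0.19 for mz_EKO (limma, adjusted p = 0.997), where 34.6%, 25.4% and 0.0112% of genes were called. Without mz_NrKO replicate 4 the second value was -0.64 (limma, adjusted p = 0.0682). Within the shared date 8/3 of the full-length table, the differences were -1.69 ± 0.16 for mz_DKO (9 against 15 embryos; limma, adjusted p = 4.85e-09), -0.72 ± 0.16 for mz_NrKO (6 against 15; limma, adjusted p = 0.00131) and -0.03 ± 0.14 for mz_EKO (9 against 15; limma, adjusted p = 0.994).

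The knockouts were also compared with each other at 8C. Crxos in mz_DKO minus mz_EKO embryos was -1.80 ± 0.23 (log2, SE; limma, adjusted p = 1.83e-08) with no overlap of the groups, where 30.2% of genes were called. In mz_DKO minus mz_NrKO embryos it was -1.07 ± 0.24 (limma, adjusted p = 0.0323), where only 0.147% of genes were called, with all 10 mz_DKO embryos below the mz_NrKO mean and the ranges 189.9 to 660.4 TPM and 652 to 4399.7 TPM meeting at the edge. That call was lost under several alternatives at values close to this one, with no filter (-1.07; limma, adjusted p = 0.0759), with the replicate block (-1.0; limma, adjusted p = 0.127), with these 2 groups only (-1.11; limma, adjusted p = 0.516), within 1 date (-0.97; limma, adjusted p = 0.692) and without the library at 4399.7 TPM (-0.98; limma, adjusted p = 0.0505). In the UMI table it was -1.06 ± 0.25 (limma, adjusted p = 0.143), where 0.0335% of genes were called. The comparisons share the mz_DKO libraries and are not independent. The mz_DKO difference of Crxos from mz_DHet was lower at 8C than at L2C, by -1.02 ± 0.33 (limma interaction, adjusted p = 0.0472), where 5.14% of genes were called, and the same difference was 0.08 ± 0.35 for mz_NrKO (limma, adjusted p = 0.948) and 0.44 ± 0.36 for mz_EKO (limma, adjusted p = 0.814). The authors' deposited table lists Crxos at -1.56 for mz_DKO at 8C (false discovery rate 7.32e-13), -0.53 for mz_NrKO at 8C (0.0612) and -0.79 for mz_DKO at 4C (0.013). The size for mz_NrKO is below the fold change of 1.5 in the authors' own rule.

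**Figure D4:**
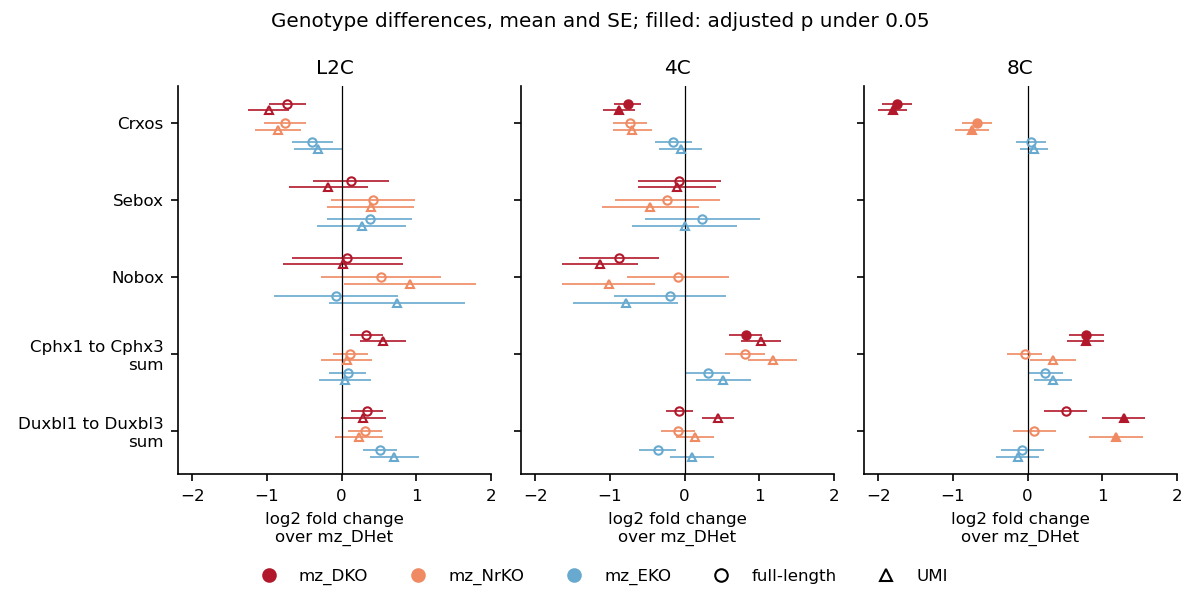
Log2 fold change over mz_DHet ± SE for Crxos, Sebox, Nobox and the summed copies, at L2C, 4C and 8C, in the full-length table (circles) and the UMI table (triangles). The single Cphx1 and Duxbl1 entries are not drawn, nor are genes that did not pass the filter on low values. Filled symbols have an adjusted p under 0.05. Crxos lies below 0 for mz_DKO and mz_NrKO at each stage, and summed Cphx lies above 0 for mz_DKO.

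Summed Cphx moved the other way from Crxos in embryos without both receptors. At 4C it had a median of 1172 TPM (703 to 1747, n = 10) in mz_DKO embryos, against 694 TPM (250.3 to 923, n = 6) in mz_DHet embryos, and all 10 were above the mz_DHet mean. The difference was 0.82 ± 0.22 (log2, SE; limma, adjusted p = 0.036), with 2.58% of entries called in this fit, and 1.03 ± 0.27 in the UMI table (limma, adjusted p = 0.0566). This call at 4C was also lost within 1 date (0.69; limma, adjusted p = 0.0702), without the date term (0.87; limma, adjusted p = 0.0706), with median-of-ratios scaling (0.79; limma, adjusted p = 0.0623), with no filter (0.82; limma, adjusted p = 0.117) and with the replicate block (0.85; limma, adjusted p = 0.118). At 8C it had a median of 286 TPM (158 to 503, n = 10) in mz_DKO, 144 TPM (75.7 to 297, n = 10) in mz_NrKO and 236 TPM (74.3 to 405, n = 10) in mz_EKO embryos, against 159.9 TPM (84.4 to 320.3, n = 21) in mz_DHet embryos. Of the 10 mz_DKO embryos, 9 were above the mz_DHet mean, though the ranges overlapped. The mz_DKO difference at 8C was 0.79 ± 0.23 (limma, adjusted p = 0.00541; 33.8% of entries called), 0.77 ± 0.20 within 8/3 (limma, adjusted p = 0.0033) and 0.78 ± 0.25 in the UMI table (limma, adjusted p = 0.0132). For mz_NrKO and mz_EKO it was -0.04 ± 0.23 (limma, adjusted p = 0.928) and 0.24 ± 0.23 (limma, adjusted p = 1.0). The mz_DKO minus mz_NrKO difference itself was 0.83 ± 0.27 and was not called (limma, adjusted p = 0.256).

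The single Cphx1 entry gave 1 call that the sum did not share. In 4C mz_NrKO embryos it held 8.09, 16.1, 43.1, 83.1 and 171 TPM, against a median of 3.05 TPM (0 to 12.8, n = 6) in mz_DHet embryos, a difference of 3.2 ± 0.78 (log2, SE; limma, adjusted p = 0.0496), where 0.675% of genes were called. The summed copies in the same embryos held 572, 801, 817, 1029 and 1323 TPM and differed by 0.81 ± 0.27 (limma, adjusted p = 0.184), where 0.621% of entries were called. The UMI entry of Cphx1 gave 1.03 ± 1.61 (limma, adjusted p = 0.898). Leaving out replicate 2, 3, 4 or 5 ended the call, at values of 2.79 to 3.61, and the fit without replicate 1 gave 3.96 (limma, adjusted p = 0.0301).

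Summed Duxbl differed between the tables. In UMI libraries at 8C its median was 61.1 TPM (22.2 to 106, n = 9) in mz_DKO embryos and 24.3 TPM (7.34 to 49.0, n = 9) in mz_EKO embryos, against 23.6 TPM (8.19 to 52.8, n = 16) in mz_DHet embryos. The 5 mz_NrKO embryos held 25.6, 39.0, 46.3, 80.1 and 105 TPM. The differences from mz_DHet were 1.29 ± 0.29 for mz_DKO (limma, adjusted p = 0.000622; 8 of 9 above the mz_DHet mean), 1.19 ± 0.36 for mz_NrKO (limma, adjusted p = 0.0127; 4 of 5 above) and -0.13 ± 0.29 for mz_EKO (limma, adjusted p = 0.997). Leaving out mz_NrKO replicate 2 or 3 ended the second call, at 1.07 and 0.98 (limma, adjusted p = 0.0515 and 0.0757). The share of copies also differed between groups in these UMI libraries. Over 90% of the sum lay in the Duxbl1 entry in 11 of 16 mz_DHet and 7 of 9 mz_EKO embryos. Another 5 mz_DHet and 1 mz_EKO embryo had over 90% in the Duxbl2 entry. For Duxbl1 this held in 0 of 5 mz_NrKO and 0 of 9 mz_DKO embryos, and for Duxbl2 in 1 and 2 of them. Their median shares in Duxbl1 were 37.1% and 33.8%. The mz_DHet and mz_EKO groups, where most libraries lay in a single entry, also had the lower sums. The part of level in these shares, and of the shares in the calls, was not tested. In the full-length table the medians were 43.5 TPM (9.2 to 71.8) in mz_DKO, 23.1 TPM (9.91 to 92.9) in mz_NrKO and 25.5 TPM (7.69 to 58.6) in mz_EKO embryos, against 26.3 TPM (6.15 to 69.5) in mz_DHet embryos. There the differences were 0.51 ± 0.29 for mz_DKO (limma, adjusted p = 0.173) and 0.09 ± 0.29 for mz_NrKO (limma, adjusted p = 0.852). No comparison at L2C or 4C called summed Duxbl in either table.

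**Figure D5:**
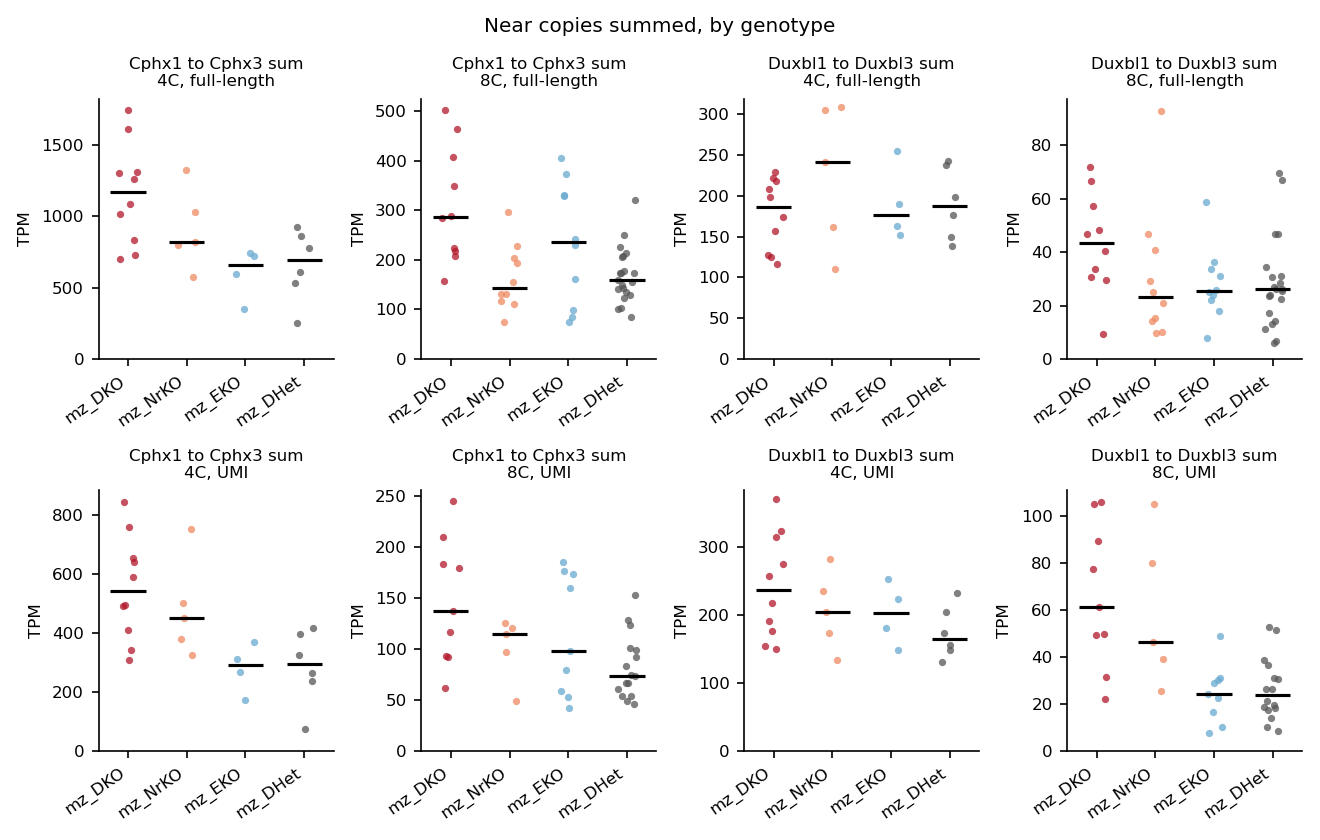
Summed Cphx1 to Cphx3 and summed Duxbl1 to Duxbl3 in TPM by genotype at 4C and 8C, in the full-length and the UMI table, with 1 point per library and bars at group medians. The mz_DKO embryos lie above the mz_DHet median of summed Cphx at 4C in all 10 full-length libraries, and summed Duxbl separates less in the full-length than in the UMI table.

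The maternal pair was nearly gone by 8C in every genotype. Sebox had a median of 2.13 TPM (0 to 11.8, n = 10) in mz_DKO, 1.23 TPM (0 to 9.42, n = 10) in mz_NrKO and 0 TPM (0 to 3.02, n = 10) in mz_EKO embryos, against 0 TPM (0 to 6.19, n = 21) in mz_DHet embryos. It did not pass the filter on low values; without a filter the mz_DKO difference was 1.40 (log2; limma, adjusted p = 0.00888), and the authors' deposited table lists 2.69 with a false discovery rate of 0.046 and, in the UMI table, 2.21 with 0.0114. These Sebox medians at 8C lie under the 10 TPM of the authors' own rule. Nobox was listed at 0 in all 10 mz_DKO and all 10 mz_NrKO embryos and in 8 of 10 mz_EKO embryos, against 19 of 21 mz_DHet embryos. At 4C neither gene was called in any genotype, with Sebox medians of 17.2 TPM in mz_DKO, 16.5 TPM in mz_NrKO and 41.8 TPM in mz_EKO, against 17.1 TPM in mz_DHet embryos.

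Marker genes moved with genotype at 8C. The summed level of 7 oocyte markers had a median of 102 TPM (23.0 to 155) in mz_DKO, 57.3 TPM (11.0 to 152) in mz_NrKO and 18.2 TPM (4.72 to 42.5) in mz_EKO embryos, against 20.8 TPM (4.62 to 59.2) in mz_DHet embryos. For 6 markers of the 2-cell stage it was 103 TPM (23.4 to 761) in mz_DKO, 83.4 TPM (1.27 to 211) in mz_NrKO and 11.5 TPM (0.499 to 37.5) in mz_EKO embryos, against 8.95 TPM (0 to 38.3) in mz_DHet embryos. For 6 markers of later embryos it was 435 TPM (143 to 802) in mz_DKO, 480.3 TPM (178 to 1799.9) in mz_NrKO and 1112 TPM (713 to 1674) in mz_EKO embryos, against 1102 TPM (84.7 to 1698) in mz_DHet embryos. The 12 cumulus and granulosa markers did not follow this order, at medians of 25.9, 23.8 and 23.6 TPM in mz_DKO, mz_NrKO and mz_EKO embryos, against 26.3 TPM in mz_DHet embryos, with 5 to 7 of the 12 at 0 in every library of a group. The 7 blood markers had medians of 8.61 TPM (2.05 to 34.2) in mz_DKO, 4.81 TPM (0 to 75.8) in mz_NrKO and 0 TPM (0 to 7.29) in mz_EKO embryos, against 0 TPM (0 to 6.68) in mz_DHet embryos, with 2 to 4 of the 7 at 0 in every library of a group. The 5 oviduct epithelium markers had medians of 219.8 TPM (86.1 to 604) in mz_DKO, 198 TPM (54.5 to 1328) in mz_NrKO and 284 TPM (119 to 622) in mz_EKO embryos, against 328 TPM (68.8 to 667) in mz_DHet embryos. Only 2 of these 5, and 1 of the 12 cumulus and granulosa markers, had a median of at least 1 TPM in each group. Both sums rest on few genes and are not read as RNA of those cells. For the oocyte markers it was 3 of 7 in mz_DKO and mz_NrKO and 1 of 7 in mz_EKO and mz_DHet embryos. The part of the marker differences in the results for Crxos, Cphx, Duxbl and Sebox was not tested.

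Other homeobox genes were set beside the members as lists, with counts of those that passed the filter. At 8C these counts stand beside 33.7% of all genes called for mz_DKO and 28.3% for mz_NrKO, and nothing particular to a list is read from them. Of 11 tested paired-type genes at 8C, 3 rose and 1 fell in mz_DKO embryos, with a median of 0.39 (log2) beside 0.05 over all genes. Gsc, a paired-type gene known from the organizer of the gastrula, averaged 237 ± 126 TPM in mz_DKO embryos (SD, n = 10), against 11.3 ± 11.7 TPM in mz_DHet embryos (SD, n = 21), a change of 4.52 ± 0.45 (limma, adjusted p = 2.99e-11). Hesx1, a repressor of the anterior neural plate and pituitary, averaged 24.9 ± 15.5 TPM in mz_DKO embryos, against 1.8 ± 2.03 TPM in mz_DHet embryos (limma, adjusted p = 6.02e-09). Esx1 rose by 1.32 (limma, adjusted p = 0.0444) and Dmbx1 fell by 1.93 (limma, adjusted p = 2.24e-05) in the same comparison. In mz_NrKO embryos 2 of the 11 rose, Gsc by 3.39 and Hesx1 by 1.73, none fell and the list median was 0.15 beside 0.0 over all genes. In mz_EKO embryos none of the 11 was called.

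Of the Obox genes, an egg and 2-cell homeobox cluster, 2 passed the filter at 8C and both rose in mz_DKO embryos, Obox8 by 4.03 ± 0.66 (limma, adjusted p = 2.38e-06) and Obox6 by 0.85 ± 0.34 (limma, adjusted p = 0.0432). Only Obox8 was called in mz_NrKO embryos, at 4.02 ± 0.65 (limma, adjusted p = 4.08e-06). Of 23 other homeobox genes, 7 rose and 7 fell in mz_DKO embryos, beside 33.7% of all genes called, and 5 rose and 7 fell in mz_NrKO embryos, beside 28.3%. Cdx2, a trophectoderm factor, averaged 1.38 ± 1.9 TPM in mz_DKO embryos and 92.8 ± 68.4 TPM in mz_DHet embryos (limma, adjusted p = 3.42e-09). Of 6 tested oocyte factors and Nobox targets, 2 rose and 2 fell in mz_DKO embryos, so the list had no common direction. The 2 that rose were Zp3, a zona pellucida gene, at 2.27 ± 0.38 (limma, adjusted p = 4.56e-06), and Dppa3, a maternal factor that guards DNA methylation, at 0.90 ± 0.12 (limma, adjusted p = 4.49e-08). Of 13 genes of the 2-cell burst, 11 rose and none fell, in mz_DKO and in mz_NrKO embryos alike.

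At E2C, for mz_NrKO minus mz_NrHet, where 5.17% of all genes were called, 3 of 6 Obox genes fell (Obox5, Obox6 and Obox7, at -0.39, -1.57 and -0.37), 3 of 31 other homeobox genes fell, and none of 12 other paired-type genes was called. Of 24 oocyte factors and Nobox targets, 1 rose and 2 fell. Of 24 genes of the 2-cell burst, 20 fell, with a median of -1.95 beside -0.09 over all genes. These list counts include mz_NrKO replicate 1. The 4C mz_DKO comparison called 2 of 13 paired-type genes, beside 2.58% of all genes, Cphx3 itself at 0.81 (limma, adjusted p = 0.0356) and Mixl1, a mesendoderm gene, at -3.75 (limma, adjusted p = 0.000163).

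The genes whose group means followed Crxos, Nobox, Sebox and Cphx1 most closely over the 22 groups were found by Pearson correlation of log2(TPM + 1) among 11029 genes, as a description with no test, since groups share stage and dates. For Crxos these were Tomm5 (0.997), Aprt (0.996), Edf1 (0.995), Timd2 (0.995) and Bcl2l14 (0.994). For Nobox they were Rbl1, Tgfb3, Trappc3l, Eef2k and Trappc9, all at 0.988 to 0.989. Sebox was followed by Tmtc1, Scg3 and Lrrc28 at 0.993 and by Enox1 and Pdzd2 at 0.99. The Cphx1 entry had looser neighbours, with Dcaf1 at 0.934 and Setdb1 at 0.93. Ranked by Spearman correlation instead, 1 of these 5 genes stayed in the top 5 for Crxos, 2 for Cphx1 and none for Sebox or Nobox, so the order depends on the measure.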

How the data were processed

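Single oocytes and embryos were profiled by a FLASH-seq-derived protocol, per the labels' protocols, which also put genotyping primers into the cDNA amplification. TPM values per gene were deposited by the authors, and RSEM, STAR, cutadapt, DESeq2 and the mm10 build are named in the submitters' processing notes, without versions. The authors' deposited log2 fold changes and p-values (false discovery rates) are quoted by name, and their own rule was over 10 TPM, a fold change of 1.5 and a false discovery rate under 0.1, per the file headers. TPM is a share of captured poly(A) RNA, not RNA per embryo, and it keeps no read depth.

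From these TPM values, log2(TPM + 1) was fitted with limma-trend (limma 3.58.1, R 4.3.3) within each stage, with group and labelled date as terms, over named genes with at least 5 TPM in as many libraries as the smallest group holds. Tests were two-sided with Benjamini-Hochberg adjustment over all genes tested, at 0.05. Steps between stages used control groups only. The fit was tested on simulated data. The 5 members are the named genes, and the 5 genes nearest each by Pearson correlation were named. The members and lists were chosen with earlier results of these data known. Sums of near copies, the NrHet step, stage steps without date, UMI leave-outs and the 8C leave-outs were added after the values were seen. Alternatives were pseudocounts of 0.1 and 5, no filter, no date term, median-of-ratios scaling, a replicate block, 2 groups only, 1 date only, the UMI table and leaving out single replicates. Equal replicate numbers were compared by correlating deviations from group means, which keep any effect of labelled date. In oocytes the lowest r was 0.109 over 9 pairs of NrHet with Nrpp and 0.0739 over 12 pairs of NrKO with NrHet. Equal numbers there share a labelled date, and only 1 pair of each set matched its own number best. Pairing and date therefore cannot be told apart. All 65 unnamed entries were left out. The genes whose pattern was most like that of Duxbl1 are not reported here.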

Additional observations from a re-analysis of the deposited data

Results flagged for a closer look

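Of 183 combinations of a group of 4 to 10 libraries with a member or a sum of copies, 33 had a library far from the rest. Its gap to the nearest other library was over the 95% limit of Dixon's ratio. Chance gives about 1 group in 20 where values are normally distributed. Some groups here lie largely at 0 TPM and every library set apart lay above the rest, so the 33 are not compared with that rate. Values are TPM of the full-length table unless UMI is named.

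Crxos stood apart at 1304 TPM in 4C mz_NrKO replicate 4 (others 405 to 595), 883 TPM in 4C mz_DKO replicate 10 (others 268 to 579) and 4399.7 TPM in 8C mz_NrKO replicate 8 (others 652 to 1316). Crxos UMI values stood apart at 2730.1 TPM in 4C mz_NrKO replicate 4 (others 791 to 1238) and 2826 TPM in 8C mz_NrKO replicate 5 (others 1196 to 1641). Cphx1 stood apart at 287 TPM in L2C mz_DHet replicate 3 (others 1.23 to 33.4), 57.3 TPM in L2C mz_EKO replicate 5 (others 0 to 11.4) and 29 TPM in L2C mz_NrKO replicate 4 (others 1.15 to 14.1). Further Cphx1 libraries stood at 53.2 TPM in L2C z_NrKO replicate 4 (others 0 to 18.2), 125 TPM in 8C mz_NrKO replicate 6 (others 0 to 0.558) and 240.1 TPM in 8C mz_DKO replicate 9 (others 0 to 27.8). Cphx1 UMI values stood apart at 70.0 TPM in L2C mz_DHet replicate 4 (others 0 to 1.7), 639 TPM in L2C mz_NrKO replicate 5 (others 0 to 230.4) and 36.5 TPM in 4C mz_DHet replicate 1 (others 0 to 4.16). Further Cphx1 UMI libraries stood at 137 TPM in 4C mz_NrKO replicate 2 (others 0 to 1.34), 8.96 TPM in 8C mz_EKO replicate 1 (others 0 to 2.25) and 65.5 TPM in 8C mz_DKO replicate 8 (others 0 to 1.31). Duxbl1 stood apart at 4.73 TPM in MII oocyte Nrpp replicate 9 (others 0 to 2.25), 26.9 TPM in L2C mz_DHet replicate 3 (others 0 to 10.9) and 32.1 TPM in L2C mz_DKO replicate 4 (others 3.52 to 14). Sebox stood apart at 139 TPM in 4C mz_DHet replicate 2 (others 3.48 to 19.4). Sebox UMI values stood apart at 121 TPM in 4C mz_DHet replicate 2 (others 13.4 to 33.7). Nobox stood apart at 107 TPM in L2C mz_NrKO replicate 6 (others 2.97 to 46.3), 20.0 TPM in 4C mz_DHet replicate 6 (others 0.92 to 6.34) and 23.1 TPM in 4C mz_DKO replicate 10 (others 0 to 8.33). Nobox UMI values stood apart at 97.7 TPM in L2C mz_NrKO replicate 3 (others 0 to 46), 42 TPM in L2C z_NrHet replicate 2 (others 1.85 to 17.3) and 16 TPM in L2C z_NrKO replicate 1 (others 1.77 to 6.02). Further Nobox UMI libraries stood at 16.9 TPM in 4C mz_DKO replicate 10 (others 0 to 6.12) and 1.17 TPM in 8C mz_EKO replicate 9 (all others at 0). Cphx1 to Cphx3 summed UMI values stood apart at 528 TPM in L2C mz_DHet replicate 6 (others 160.3 to 316) and 741 TPM in L2C mz_NrKO replicate 5 (others 160.1 to 444). Duxbl1 to Duxbl3 summed stood apart at 92.9 TPM in 8C mz_NrKO replicate 3 (others 9.91 to 46.7).

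The effect of mz_DKO on Crxos differed between stages by -1.02 (log2, 8C minus L2C), in a test of the difference itself (limma, adjusted p = 0.0472). Most of the libraries set apart for the single Cphx1 and Duxbl1 entries concern entries whose reads are shared with near copies, and their cause was not tested.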

How the results depend on the processing

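The limits are those of TPM: read depth is unknown, near copies share the reads of Cphx1 and Duxbl1, dates are unevenly shared between groups, and 4 or 5 embryos make up some 4C and UMI groups. Among recomputed values that answer a comparison, 346 were classed as unchanged. These include counts of members called that did not move, also where none was called, and such counts have no direction. The 346 therefore do not measure how steady the called values were. Of the rest, 41 values of genes or summed copies no longer passed the threshold, 1 reversed, and 25 counts of members called moved. Among results not called in the main fit, 1335 recomputed values stayed uncalled, whatever their direction, and 18 passed only under the alternative. The 5 lists of most similar genes moved under Spearman correlation. The cause of these changes was not tested, apart from fewer samples or more genes where the alternative is built so. The Cphx1 call for mz_NrKO at 4C (3.2) was lost with a pseudocount of 0.1 (4.29) or 5 (2.16), no filter (3.2), median-of-ratios scaling (3.14), the replicate block (2.87), 2 groups only (3.02), 1 date (1.23) and the UMI table (1.03). Leaving out single replicates gave 2.79 to 3.96, and in UMI values -0.54 (reversed), 0.94, 1.18, 1.18 and 2.2. Crxos for mz_DKO at 4C was lost with no filter (-0.76), no date term (-0.81) and the replicate block (-0.81). Summed Cphx in the same comparison was lost with no filter (0.82), no date term (0.87), median-of-ratios scaling (0.79), the block (0.85), 1 date (0.69) and the UMI table (1.03). Crxos for mz_NrKO at 8C was lost without the date term (-0.57), and UMI leave-outs gave -0.96 to -0.64. Crxos for mz_DKO minus mz_NrKO was lost with no filter (-1.07), the block (-1.0), without mz_NrKO replicate 8 (-0.98), with 2 groups only (-1.11), in 1 date (-0.97) and in the UMI table (-1.06; -1.17 to -0.85 in leave-outs, -1.08 without replicate 3). Cphx1 was lost for L2C minus E2C with a pseudocount of 0.1 (-2.72) and for 8C minus L2C with 5 (-1.79), and the Crxos interaction with 0.1 (-1.02). Members called numbered 1, against 0, at L2C without the date term for mz_NrKO, mz_EKO and mz_DKO. They numbered 0, against 1, wherever a loss above leaves no other call, which at 4C for mz_NrKO includes leaving out replicates 2, 3 or 5, and 2, against 1, for mz_DKO at 8C with no filter. Outside the 2 oocyte comparisons named above, some libraries with equal replicate numbers correlated negatively in every comparison. The block changed no other member call.

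Over all genes, calls ranged over these alternatives from 0 to 1527 for mz_NrKO (main 18) and 0 to 296 for mz_EKO at L2C, 169 to 990 for mz_NrKO at E2C (674), 118 to 441 for mz_DKO at 4C (336), 1717 to 3209 for mz_NrKO at 8C (3075), 2980 to 4203 for mz_DKO at 8C (3669), 3 to 72 for NrKO minus NrHet oocytes (19) and 7 to 115 for NrKO minus Nrpp oocytes (107).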
